A study of Rattus norvegicus with 6 samples.

Results

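Hepatocyte nuclear factors and FOXA factors are transcription factors first described in liver, and 6 of their genes were followed here in pancreatic islets: *Hnf4a*, *Foxa1*, *Foxa2*, *Foxa3*, *Onecut1* and *Nr5a2*. The members are a list of gene names, set by no threshold on their values, out of 13903 rat genes with a probe matched to a symbol, and each of the 6 was matched to 1 probe. Islets of male Wistar rats, for which the labels give no treatment, aged 3 months and 12 months, isolated by collagenase digestion, were profiled on 1-colour arrays, with 3 arrays of each age and RNA from 3 rats of each age. The labels give no other difference between the ages. The scanner headers give 1 scan identifier for all 12-month arrays and another for all 3-month arrays. An effect of the scan, or of any step shared by the arrays of a scan, and an effect of age cannot be told apart. A whole-islet preparation holds several cell types, and in such bulk RNA fewer cells of a type and less RNA per cell cannot be told apart.

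HNF4A is an orphan nuclear receptor, the FOXA factors are forkhead proteins that can bind closed chromatin, ONECUT1 (also called HNF6) is a cut-homeodomain factor, and NR5A2 (also called LRH-1) is a nuclear receptor that binds DNA as a monomer. In the embryo FOXA1 and FOXA2 act early in endoderm and pancreas formation, and ONECUT1 acts in the progenitors that give rise to duct and endocrine cells. In the adult, HNF4A acts in beta cells and liver, and loss of a copy of its gene causes MODY, an inherited diabetes. FOXA2 maintains beta cell and alpha cell gene programmes, whereas NR5A2 is best known in the pancreas for sustaining acinar, enzyme-secreting cells.

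*Hnf4a* is known to be transcribed from a distal promoter used in islets and a proximal one used in liver. The 250 bases before its upstream start in RefSeq (assembly GRCr8) and before the start of *Foxa2* are shown because these were the members that passed an unadjusted p of 0.05 below; capitals mark matches to the motifs described afterwards.
Hnf4a upstream start, chr3:172605970-172606219, plus strand: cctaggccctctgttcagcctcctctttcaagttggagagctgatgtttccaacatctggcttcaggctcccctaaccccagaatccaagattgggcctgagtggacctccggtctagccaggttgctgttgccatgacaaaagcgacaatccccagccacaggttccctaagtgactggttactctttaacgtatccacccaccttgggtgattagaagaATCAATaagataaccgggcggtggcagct
Foxa2 start, chr3:155927509-155927758, minus strand: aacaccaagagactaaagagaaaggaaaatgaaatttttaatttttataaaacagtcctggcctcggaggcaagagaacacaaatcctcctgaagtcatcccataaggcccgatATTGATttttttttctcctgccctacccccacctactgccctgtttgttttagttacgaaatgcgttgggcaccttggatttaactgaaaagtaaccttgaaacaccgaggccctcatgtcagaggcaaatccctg

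The motifs, read on both strands, were a forkhead core (TGTTTAC), an ONECUT core (ATCAAT), an NR5A site (CAAGGTC) and a nuclear receptor half-site (AGGTCA), chosen with the windows in view. The last 2 motifs share letters and can overlap, but none of the matches listed here did. The upstream *Hnf4a* window held an ONECUT core 29 to 24 bases before the start. The window of its downstream start, which lies 35616 bases further along, held no match. The *Foxa2* window held an ONECUT core on the other strand, 136 to 131 bases before the start. Of the other members, the *Nr5a2* window held a nuclear receptor half-site 134 to 129 bases before the start, and the *Foxa3* window held no match. *Foxa1* and *Onecut1* had no window here. Among the same 250 bases of all 33469 windows, 3.21% held the forkhead core, 7.1% the ONECUT core, 3.61% the NR5A site and 14.1% the nuclear receptor half-site, and a match is a description of letters, not a site. The array probe of *Hnf4a* was matched to a transcript, and which start its signal came from was not tested.

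The islet identity of the samples was checked first. All 6 matched beta cell markers, among them *Ins1* and *Ins2*, and all 4 alpha cell markers, among them *Gcg*, were well above background on every array. Acinar markers were also present: 9 of 10 were well above background on all arrays, and *Cpa1* was among the brighter ones. The 75th percentile of the unnormalized log2 signal ran from 10.21 to 11.35 on the 12-month arrays and from 8.46 to 10.52 on the 3-month arrays. The share of probes well above background, the scanner software's mark of detection, was 59.5% to 64.2% at 12 months and 73.1% to 77.5% at 3 months.

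In the comparison of the ages, which asked whether these transcripts differ between 12-month and 3-month islets, none of the 6 passed an adjusted p of 0.05 (limma, Benjamini-Hochberg over 17941 probes). *Hnf4a* and *Foxa1* had lower mean signals at 12 months, and *Foxa2*, *Foxa3*, *Onecut1* and *Nr5a2* had higher ones. The count of 0 stands beside 1502 of all tested probes, or 8.37%. At an unadjusted limma p under 0.05, 2 of the 6 passed, *Hnf4a* and *Foxa2*, against 32.4% of all probes. The study called a gene at more than 2-fold and an unadjusted p under 0.05, and 1 of the 6 passed that threshold, against 22.0% of all probes. It was *Hnf4a*, lower at 12 months, as were 11.9% of all probes at that threshold. These p-values are from limma, whereas the study states a paired test for its own p-values. The threshold of the study here and below means its cut-offs, 2-fold and 0.05, applied to limma p-values unless another test is named. With the methods' t-test, with its paired form or with normexp background correction 0 of the 6 passed, *Hnf4a* included, against 15.3%, 8.66% and 11.7% of all probes. The members' shares are close to these background shares or below them. Of the 6 members only *Foxa2* had every 12-month array on one side of every 3-month array, against 39.3% of all probes, and 16.5% of all probes were separated upwards as *Foxa2* was. All 6 members passed the filter of detection on at least 3 of the 6 arrays, and 3 of them (*Hnf4a*, *Foxa2* and *Onecut1*) were well above background on all 6.

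**Figure D1:**
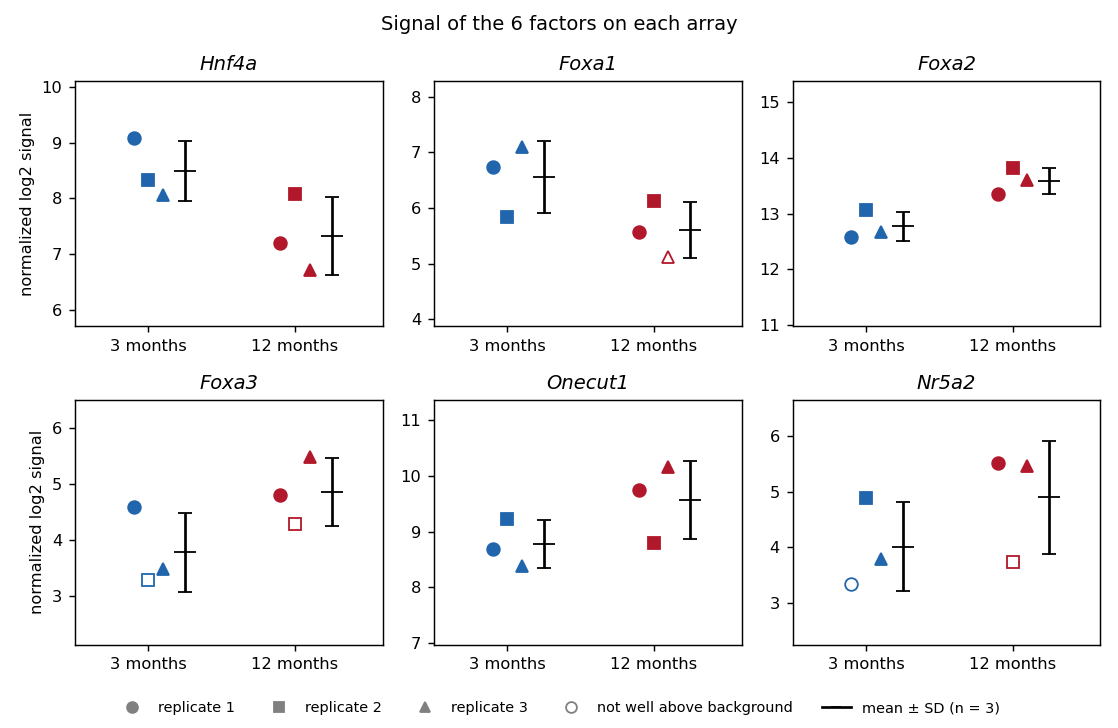
Normalized log2 signal of each of the 6 factors on each array at 3 months (blue) and 12 months (red); marker shape gives the replicate, open markers are arrays on which the probe was not well above background, and the black bar is the mean with its SD (n = 3). Every panel spans the same range of log2 units. Only for *Foxa2* do the 3 arrays of each age lie apart.

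*Hnf4a*, the nuclear receptor of the group, had normalized log2 signals of 9.08, 8.32 and 8.05 on 3-month arrays 1 to 3 and of 7.19, 8.08 and 6.71 on 12-month arrays 1 to 3. The second 12-month array lay just above the lowest 3-month array, and the other 12-month arrays lay below all 3-month arrays. The means were 8.49 ± 0.54 at 3 months and 7.33 ± 0.70 at 12 months (SD, n = 3). The difference of -1.16 (limma SE 0.44) corresponds to a fold of 2.23, with a 95% interval from -2.21 to -0.11 log2 units. Its unadjusted limma p was 0.0349 and its adjusted p 0.129. The exact permutation test gave a two-sided p of 0.2, where 0.1 is the smallest that 3 arrays against 3 allow.

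The *Hnf4a* difference was seen after the arrays were scaled to one another. Before normalization its processed signal was 164, 282 and 289 scanner units at 3 months and 282, 419 and 99.5 at 12 months. The mean log2 difference was then -0.06. In rank among all probes, the *Hnf4a* probe stood at the 66.4th, 61.2nd and 59.3rd percentile at 3 months and at the 53.4th, 59.7th and 49.8th at 12 months. With the 75th percentile of the arrays aligned instead of all quantiles the difference was -1.21, and with normexp background correction it was -0.86. Under the 75th percentile alignment the median difference over all probes was -0.40, against -0.17 with quantile normalization and -0.095 with normexp. *Hnf4a* lay below these medians under each scaling.

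*Foxa2*, the forkhead factor most closely tied to islet function, was measured with the smallest spread of the group. Its normalized log2 signals were 12.59, 13.06 and 12.67 on 3-month arrays 1 to 3 and 13.36, 13.82 and 13.60 on 12-month arrays 1 to 3. Every 12-month array was above every 3-month array, the smallest gap lying between the first 12-month and the second 3-month array. The means were 12.77 ± 0.26 and 13.59 ± 0.23 (SD, n = 3), a difference of 0.82 (limma SE 0.26; 95% interval 0.21 to 1.43) or 1.76-fold. The unadjusted limma p was 0.0158 and the adjusted p 0.0877, the lowest of the 6. The exact permutation test gave p = 0.1, its smallest possible value. With an intensity trend and robust variances in limma the adjusted p was 0.0407, and with the 75th percentile alignment the difference was 0.52 with an adjusted p of 0.232. Without normalization the mean difference was 1.67, a value that also holds the brightness of the whole arrays. The unnormalized 75th percentile ran from 10.21 to 11.35 at 12 months and from 8.46 to 10.52 at 3 months. The probe was bright, between the 90.7th and the 96.0th percentile of all probes on each array.

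*Foxa1*, the closest relative of *Foxa2*, had the opposite sign. Its normalized log2 signals were 6.74, 5.84 and 7.10 on 3-month arrays 1 to 3 and 5.57, 6.12 and 5.12 on 12-month arrays 1 to 3. The groups overlapped, since the second 12-month array exceeded the second 3-month array. The third 12-month array was not well above background. The difference was -0.96 (limma SE 0.42, adjusted p 0.164), with a 95% interval from -1.95 to 0.03 log2 units. With normexp it was -0.48, and with the 75th percentile alignment -1.30, where *Foxa1* also passed the threshold of the study, as did 27.4% of all probes.

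*Foxa3*, the FOXA gene best known in liver and gut, was dim. Its normalized log2 signals were 4.59, 3.27 and 3.47 at 3 months and 4.80, 4.29 and 5.49 at 12 months, on arrays 1 to 3. The first 3-month array lay within the 12-month values. The probe was not well above background on the second array of either age. The difference of 1.08 (limma SE 0.46, adjusted p 0.158; 95% interval -0.013 to 2.18) fell to 0.48 with the 75th percentile alignment and to 0.40 with normexp. The lowest normalized log2 signal well above background was 4.26 to 5.13 on the 12-month arrays and 2.89 to 3.17 on the 3-month arrays, and *Foxa3* at 3 months, at 3.27 to 4.59, mostly lay under the 12-month limit.

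*Onecut1* was well above background on all arrays, with normalized log2 signals of 8.70, 9.24 and 8.39 at 3 months and 9.76, 8.80 and 10.17 at 12 months, on arrays 1 to 3. The second 12-month array lay below the second 3-month array, while the other 12-month arrays lay above all 3-month arrays. The difference was 0.80 (limma SE 0.42, adjusted p 0.224), with a 95% interval from -0.19 to 1.79 log2 units. It was 0.77 with the 75th percentile alignment and 0.70 with normexp, so that its sign and size held under each scaling.

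*Nr5a2* was dim and the most variable member. Its normalized log2 signals were 3.33, 4.89 and 3.80 at 3 months and 5.51, 3.73 and 5.46 at 12 months, on arrays 1 to 3. The second array of each age went against the group means, and the probe was not well above background on the first 3-month and the second 12-month array. The difference was 0.89 (limma SE 0.61, adjusted p 0.336), with a 95% interval from -0.55 to 2.34 log2 units. It was 0.25 with the 75th percentile alignment and 0.33 with normexp.

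**Figure D2:**
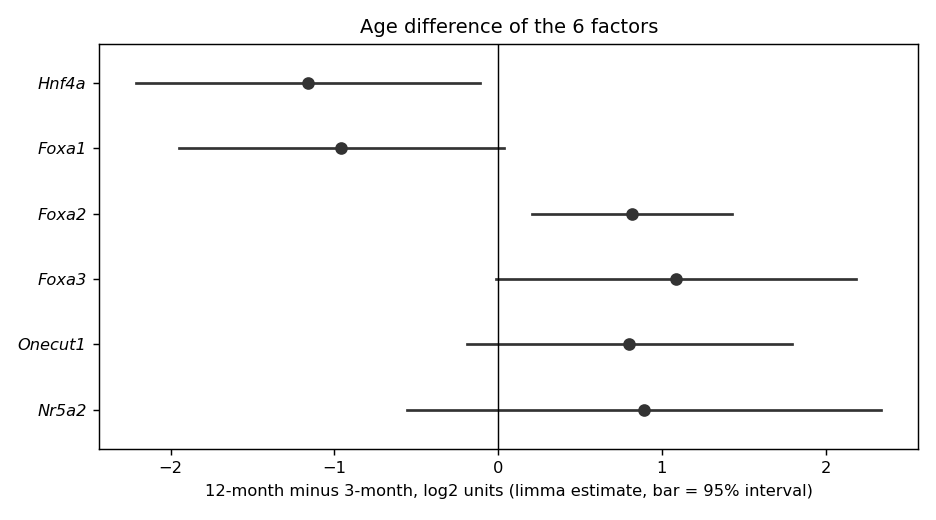
Age difference (12-month minus 3-month, log2 units) of the 6 factors; points are limma estimates and bars their 95% intervals. The intervals of *Hnf4a* and *Foxa2* exclude 0 before adjustment.

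Since the signs differed among the members, the shift with age of one member relative to another was compared array by array for all 15 pairs. The shift of *Foxa1* against *Foxa2* was -1.78 log2 units, and that of *Hnf4a* against *Foxa2* was -1.98. In 4 of the 15 pairs, those of *Hnf4a* or *Foxa1* with *Foxa2* or *Foxa3*, the ages did not overlap. These pairs share members, and each joins a member of negative difference with one of positive difference. Among all single probes 39.3% did not overlap, and the share among pairs of probes was not computed, so the count is a description only. Each of these 4 had the smallest p of the exact permutation test, 0.1, and an adjusted p over the 15 pairs of 0.375. With this test no p under 0.1 is possible for 3 arrays against 3, so that it could call no pair, and no other test of the pairs was made.

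The 3 arrays of an age did not contribute alike. At 12 months the second array had the lowest signal of *Foxa3*, *Onecut1* and *Nr5a2* and the highest of *Hnf4a*, *Foxa1* and *Foxa2*. Without it the differences were -1.54 for *Hnf4a*, -1.22 for *Foxa1*, 0.71 for *Foxa2*, 1.37 for *Foxa3*, 1.19 for *Onecut1* and 1.48 for *Nr5a2*. In that fit 5 of the 6 members, all but *Foxa2*, passed the threshold of the study, against 27.2% of all probes in the same fit. None passed the adjusted threshold there, and the lowest adjusted p was 0.0565, for *Hnf4a*. Without 12-month array 1 or without 12-month array 3, 0 members passed the threshold of the study, against at most 18.4% of all probes in either fit.

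Markers of exocrine cells were low on the same array. The mean normalized log2 signal of the 10 acinar markers was 15.80, 14.24 and 16.08 on 12-month arrays 1 to 3 and 15.59, 15.96 and 14.66 on 3-month arrays 1 to 3. The mean of 3 matched duct markers, among them *Krt19* and *Cftr*, was 12.18, 10.59 and 11.66 at 12 months and 11.91, 11.53 and 10.87 at 3 months. *Nr5a2* and *Onecut1* were thus low at 12 months where the markers of both lists were lowest. At 3 months the array with the lowest exocrine markers was the third, on which *Onecut1* was also lowest, whereas *Nr5a2* was lowest on the first. Between the ages the medians of both lists were near 0 with quantile normalization. The median difference was 0.08 for acinar markers, of which 6 of 10 were higher, and 0.05 for duct markers, of which 2 of 3 were higher. Single acinar markers ran from -1.06 (limma SE 0.61) for *Ptf1a* to 0.90 (limma SE 1.38) for *Rbpjl*, so a difference in exocrine content could be missed. With the 75th percentile alignment *Ptf1a*, *Cela1*, *Pnlip* and *Cpa1* differed by -1.22, -0.80, -0.61 and -0.45. The median over all probes was then -0.40, and the other acinar markers are not given under that alignment. The adjusted threshold in limma was passed by 0 genes of either list. The part of exocrine tissue in the values of *Nr5a2* and *Onecut1* was not tested.

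**Figure D3:**
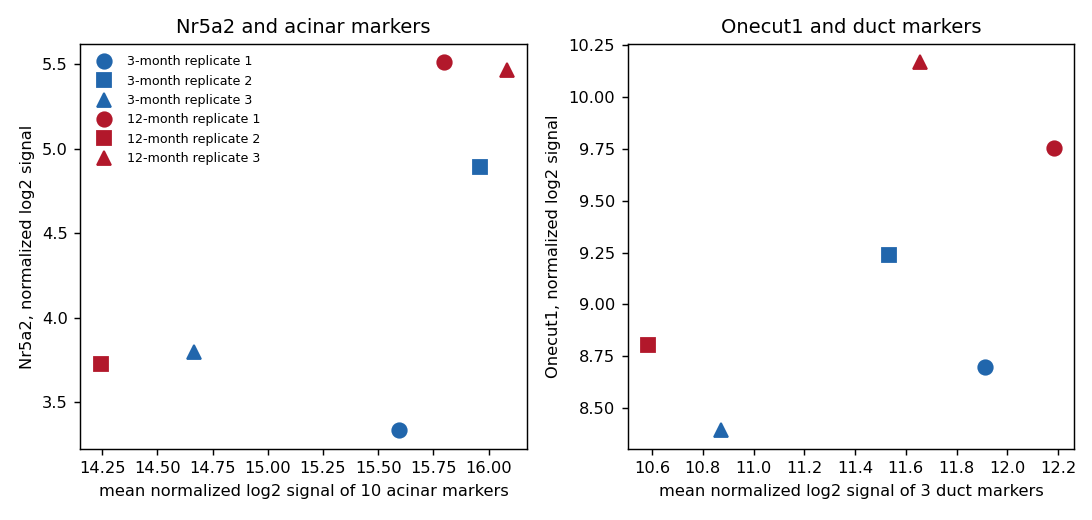
Left, normalized log2 signal of *Nr5a2* against the mean of 10 acinar markers; right, *Onecut1* against the mean of 3 duct markers, with 1 point per array, 12-month arrays in red and 3-month arrays in blue. The second 12-month array (red square) has the lowest marker mean in both panels, 14.24 and 10.59.

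Of 30 tested markers of the other cell types 3 passed the adjusted threshold, against 8.37% of all probes. Mesenchymal markers had higher means at 12 months (11.93 to 13.16) than at 3 months (10.63 to 11.41), with 4 of 4 higher and 1 of them, *Pdgfrb*, past the adjusted threshold. The first listed of these were *Col1a2* and *Col3a1*, with differences of 0.86 and 1.68. Nerve and Schwann cell markers had lower means at 12 months (6.80 to 7.36) than at 3 months (8.03 to 8.15), among them *S100b* at -1.42. Of 4 tested nerve markers 1, *Sox10*, passed the adjusted threshold. Endothelial markers ran from 9.05 to 9.65 at 12 months and from 9.94 to 10.28 at 3 months. Of these, *Pecam1* differed by 1.23 (limma adjusted p 0.124). *Cdh5* was well above background only at 3 months, where the detection limit was lower, and its difference of -2.11 did not pass (limma adjusted p 0.0515). Its 3-month mean was 1.54-fold above the 12-month detection limit, a ratio of means that carries no sampling error. Beta cell markers ran from 15.66 to 16.34 at 12 months and from 14.80 to 15.15 at 3 months, alpha cell markers from 13.15 to 13.43 and from 12.59 to 13.09, and delta and PP cell markers, among them *Sst* and *Ppy*, from 16.75 to 16.97 and from 16.30 to 16.46. Of these endocrine markers 1, *Slc30a8* of the beta cell list, passed the adjusted threshold, whereas *Ins1* and *Ins2* differed by 0.10 and -0.12. Immune markers, among them *Ptprc* and *Cd68*, overlapped between the ages, from 8.93 to 10.63 and from 9.33 to 9.95. The part of these cell types in the members' values was not tested.

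Of the partners of the 6 factors, *Nr0b2*, the corepressor SHP that binds NR5A2 and HNF4A, had normalized log2 signals of 10.20, 11.04 and 10.11 at 3 months and 9.58, 8.02 and 10.10 at 12 months, on arrays 1 to 3. Its lowest signal was on the second 12-month array, and the ages lay apart by a narrow margin. The difference was -1.21 (limma SE 0.57, adjusted p 0.189). *Pcbd1*, a pterin dehydratase that also acts as a transcriptional cofactor, differed by -0.39 with a limma adjusted p of 0.240.

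The known targets of hepatocyte nuclear factors did not move one way. Of 14 tested genes 5 were higher and 9 lower, with a median difference of -0.41. Of all tested probes 42.0% were higher, with a median difference of -0.17. The adjusted threshold was passed upwards by 2 and downwards by 0, against 5.32% and 3.05% of all probes. The threshold of the study was passed upwards by 2 and downwards by 4, against 10.1% and 11.9% of all probes. *Slc2a2*, the glucose transporter GLUT2 and a classical target of these factors, was higher by 4.11 (limma adjusted p 0.00369), where the difference of *Hnf4a* was negative and did not pass. *Apoh*, a plasma apolipoprotein, was higher by 1.89 log2 units, with means of 11.46 ± 0.06 at 12 months and 9.57 ± 0.23 at 3 months (SD, n = 3). Its limma adjusted p was 0.00974, and 0.0563 without the first 12-month array. *Apob*, which codes for the main protein of liver lipoproteins, differed by -1.34 (limma adjusted p 0.0647) and its groups did not overlap.

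Of the known targets of FOXA factors 7 were tested, 3 higher and 4 lower, with a median of -0.06. The adjusted threshold and the threshold of the study were passed by 0 of them, against 8.37% and 22.0% of all probes. *Abcc8*, a subunit of the beta cell ATP-sensitive potassium channel, differed by 1.62 with a limma SE of 0.98. *Igfbp1*, a liver-type target bound by FOXA factors, differed by -0.65 (limma adjusted p 0.188). *Sftpb*, a surfactant protein gene, was well above background only at 3 months, where the detection limit was lower. Its ages overlapped, and its difference of -0.62 (limma SE 0.30) did not pass (limma adjusted p 0.207). With normexp the *Sftpb* difference was -0.18, and with the 75th percentile alignment it was -1.18. The 3-month mean of *Sftpb* was 1.31-fold above the 12-month detection limit, a ratio of means that carries no sampling error. Of the targets of NR5A2 4 were tested, all of them digestive enzymes of acinar cells, with a median of 0.08. Their 3 lowest p-values belonged to *Cela1*, *Pnlip* and *Cpa1*, with differences of -0.19, 0.064 and 0.097. With the 75th percentile alignment all 3 were negative, at -0.80, -0.61 and -0.45, and none passed the adjusted threshold. The 4 tested targets are also in the list of acinar markers, so they are not a separate reading from that list.

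Among developmental factors that act beside the 6 in the pancreas, 2 of 5 tested genes passed the adjusted threshold, both higher at 12 months. Of all probes 5.32% passed it upwards, and a list of 5 genes is too short to set its share against that. *Gata6*, a GATA factor of the pancreatic endoderm, had means of 8.65 ± 0.26 at 12 months and 4.81 ± 0.40 at 3 months (SD, n = 3). It was higher by 3.84 log2 units (limma adjusted p 0.00304), and by 2.10 with normexp. *Hhex*, a homeobox factor of delta cells and of the foregut, was higher by 1.68 (limma adjusted p 0.0236). It passed in 2 of the 6 fits that left out 1 array; without 12-month array 1 or 3 the adjusted p was 0.0967 or 0.0570, and without 3-month array 1 or 3 it was 0.0759 or 0.0701. *Ptf1a*, the acinar factor that NR5A2 works beside, differed by -1.06 with an adjusted p of 0.264. Of 6 tested coregulators 4 were higher and 2 lower and 0 passed the adjusted threshold; *Kat2b* and *Crebbp*, both acetyltransferases, differed by 1.08 and 1.11, with limma adjusted p-values of 0.0681 (0.0449 without the second 3-month array) and 0.111. Over the 6 lists, 4 of 40 tested genes passed the adjusted threshold, against 8.37% of all probes.

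To describe which transcripts followed the members from array to array, each member detected on all arrays was compared with 9086 other such genes by the Pearson correlation over the 6 arrays, whose points share the age groups and scans. The genes most like *Hnf4a* were *Ctxn1*, *Inava* and *Tma7*, with r of 0.998, 0.998 and 0.994. Those most like *Foxa2* were *Pabir1*, *Cnot7* and *Fubp1*, with r of 1.000, 0.997 and 0.995. Those most like *Onecut1* were *Josd2*, *Syf2* and *Ptprk*, with r of 0.998, 0.995 and 0.991. They are given as a description only.

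**Figure D4:**
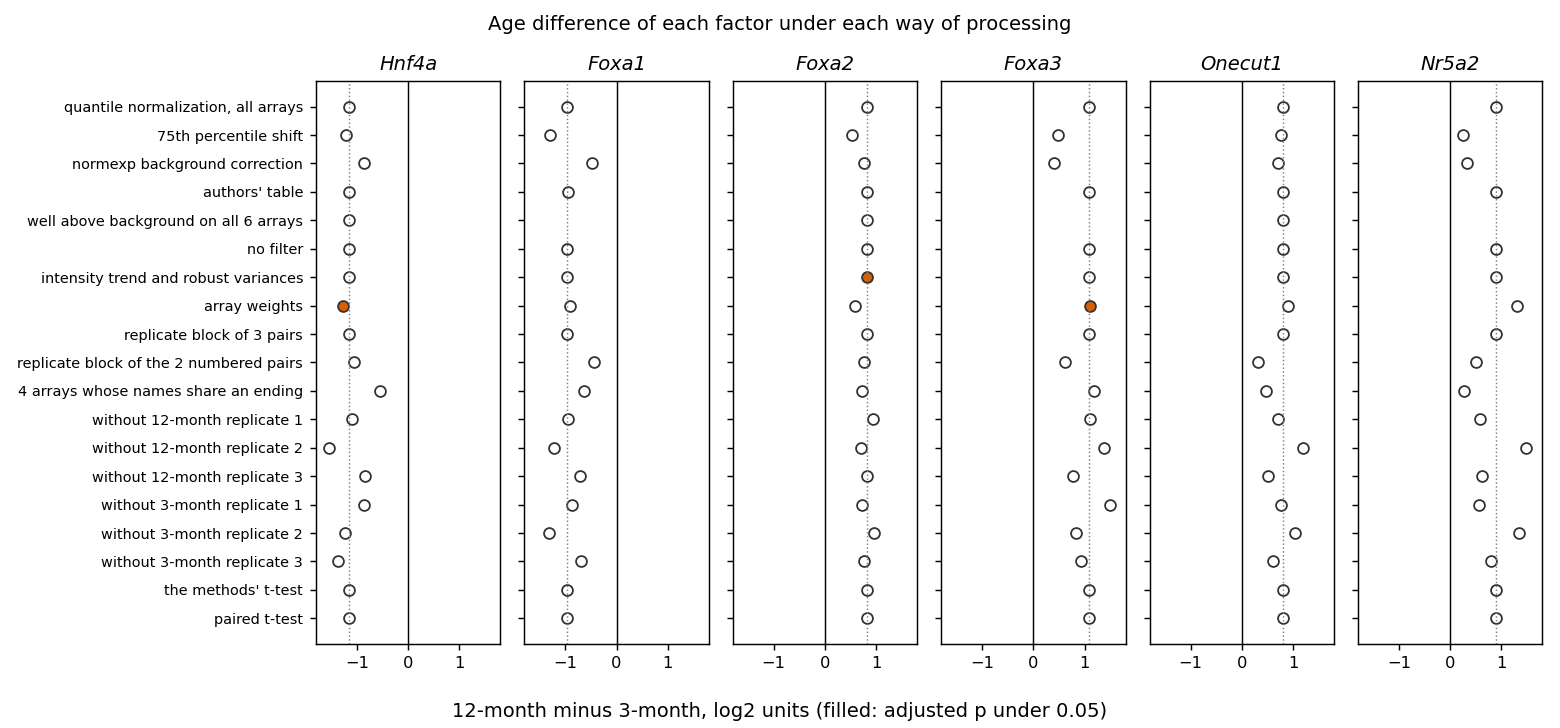
Age difference (log2 units) of each of the 6 factors under each way of processing, in rows; filled points passed an adjusted p of 0.05, the dotted line is the value with quantile normalization of all arrays, and a missing point means that the probe was not in that set. Every point keeps the side of 0 of its dotted line, and 3 points are filled.

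The sign of each of the 6 differences was the same under every alternative that gave a value, as the plot of settings shows. The values ran from -1.54 to -0.55 for *Hnf4a*, from -1.32 to -0.45 for *Foxa1*, from 0.52 to 0.96 for *Foxa2*, from 0.40 to 1.49 for *Foxa3*, from 0.31 to 1.19 for *Onecut1* and from 0.25 to 1.48 for *Nr5a2*. The alternatives share arrays, so that this says how the values depend on the processing and not how another set of rats would differ.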

How the data were processed

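Islet RNA was hybridised to 1-colour Arraystar/Agilent arrays, 3 for each age. The deposited scanner files hold the intensity of each spot from Agilent Feature Extraction 11.0.1.1, with the background subtracted, beside the mean signal, the median background and quality marks, each array on its own scale. A further table from the authors gives log2 values of 12145 mRNA probes, which the study states were quantile normalized.

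Here log2 intensities with the background subtracted were averaged per probe, leaving out spots marked as outliers, and quantile normalized. Probes well above background on at least 3 of 6 arrays (17944, of which 17941 could be tested) entered limma 3.58.1 in R 4.3.3 (lmFit and eBayes, two-sided, without a block), and p-values were adjusted by Benjamini-Hochberg over all 17941. The number of arrays limits the precision. No spot was saturated.

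Symbols came from RefSeq accessions without versions (GRCr8 table; 14274 of 15321 mRNA probes matched), with the brightest probe standing for a gene. Array design coordinates (rn4) were not used. The members, gene lists and settings were chosen with earlier results of these data known. The rule named the members, all matched partners, the genes of each other list past the adjusted threshold or its 3 lowest p-values, the first 2 matched markers of each cell type, and the 3 genes most like each member; some genes that it names are not reported here. Alternatives covered scaling, background, the authors' table, filters, variance models, array weights, replicate blocks, name endings, single arrays left out, t-tests and thresholds. The script was first tested on simulated data with known folds.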

Additional observations from a re-analysis of the deposited data

Results flagged for a closer look

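Dark corner spots, which carry no rat probe and lie outside every comparison above, gave a signal that was higher at 12 months. At 12 months the mean of their median signals was 84.7 ± 3.78 scanner units, and at 3 months it was 30.0 ± 1.70 (SD, n = 3). It was flagged as a signal outside the main measurement that is above the level in the younger group. They are given because the dim members *Foxa3* and *Nr5a2* lie near the background, and their part in those values was not tested.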

How the results depend on the processing

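Each of the 6 differences kept its sign under every alternative, 19 for *Hnf4a*, *Foxa2* and *Onecut1* and 18 for the others, which were not in the set of probes detected on all 6 arrays. Passing calls appeared with array weights, for *Hnf4a* (-1.27) and *Foxa3* (1.11), with the intensity trend and robust variances for *Foxa2* (0.82), and at an adjusted p under 0.1 for *Foxa2* (0.82). The count of members past the adjusted threshold, 0 in the limma fit with 2 at an unadjusted p under 0.05, was accordingly 2, 1 and 1. Of all 17941 tested probes 5693, 2019 and 3823 passed under these same 3 settings, so the members did not stand out. The array weights gave 12-month replicate 1 a weight of 8.56 and the other arrays 0.449 to 0.918. At the threshold of the study the members numbered 2 with the 75th percentile shift (*Hnf4a* and *Foxa1*; 27.4% of all probes passed), 3 with array weights (27.5%), 0 with normexp (11.7%), the methods' t-test (15.3%), the paired t-test (8.66%) or the block of the 2 numbered pairs (15.5%), and between 0 and 5 when single arrays were dropped (17.4% to 27.2%). All tested probes past the adjusted threshold numbered 2339 with no filter, 5693 with array weights, 435 with the methods' t-test, 1 with the paired t-test, 3823 at an adjusted p under 0.1, 0 with only the 4 arrays of one name ending, and 208 to 2167 with 1 array left out. Over the gene lists 4 genes passed, 8 with no filter or with the intensity trend, 13 with array weights, 10 at an adjusted p under 0.1, 0 with the 4 arrays or the paired t-test, and between 2 and 5 when single arrays were dropped. The causes were not tested.

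Arrays of the same replicate number did not vary together: deviations from the age means correlated at -0.010, -0.31 and -0.26 for numbers 1 to 3, the third 12-month array carrying no number in its label. With the replicate block of 3 pairs 97 probes and 2 list genes passed, and with the block of the 2 numbered pairs 0 and 0; no member passed under either. The difference of *Onecut1* was 0.31 and that of *Foxa1* -0.45 with the numbered pairs. A block by scan could not be fitted because each scan held 1 age, and no member had another probe to try. The higher background at 12 months limits what can be said of *Foxa3* and *Nr5a2*, and also of *Foxa1*. *Foxa1* was not well above background on the third 12-month array, and its difference of -0.96 was -0.48 with normexp.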
